A study of Mus musculus with 3 samples.

Results

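The genes described here are 10 known genes of Cajal-Retzius cells: Reln, Trp73, Lhx1, Lhx5, Ebf1, Ebf2, Ebf3, Ndnf, Calb2 and Nhlh2. They were taken by symbol from count tables that list 32531 genes, and all 10 were found. The set was chosen by known expression in these cells and partly by the measured CPM of Ebf3 and Reln, which differ between libraries, so differences between libraries are given below as a description. Counts of these genes from a fit over all genes are printed only beside the share of all genes, and support nothing. RNA was obtained by translating ribosome affinity purification (TRAP), in which polysomes carrying an EGFP-tagged ribosomal protein L10a are captured with antibodies to EGFP. All 3 libraries form 1 group, the immunopurified prefrontal cortex RNA of untreated adult mice of the Slc17a6-TRAP line JX883, and each library pooled 3 mice. The transgene puts the tagged protein under the control of Slc17a6, the gene of the vesicular glutamate transporter VGLUT2, so cells that do not use that control are not meant to be tagged. No input RNA or untagged control was analysed here, and the sources used here do not give the exact ages or the sexes of the pooled mice.

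Cajal-Retzius cells are early-born neurons of the marginal zone, the future layer 1, that arise at the borders of the pallium and use glutamate with VGLUT2. They secrete reelin, a large matrix glycoprotein that guides the layering of cortical neurons, and most of those in the neocortex are lost soon after birth. The transcription factors p73, LHX1, LHX5 and those of the EBF family mark them, but hardly any of their genes is theirs alone. Reelin and NDNF are also made by layer 1 GABAergic interneurons, calretinin (Calb2) by bipolar interneurons and thalamic neurons, EBF1 by striatal neurons and mural cells, and p73 by ependymal cells. Mitral and tufted cells, the output neurons of the olfactory bulb, also use VGLUT2 and express Reln, Lhx1 and Ebf3.

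Counts assigned to named genes were 12592174, 8964137 and 12648577 in replicates 1, 2 and 3. Levels between libraries are given as CPM, which scale each library to the same sum over named genes. Levels between genes are given as TPM, which also divide by the length of the merged exons. The driver gene Slc17a6 stood at 857, 723 and 913 CPM in replicates 1, 2 and 3, or 771 ± 89.5 TPM (SD, n = 3), and the cortical T-box gene Tbr1 stood at 197, 185 and 161 CPM. Nothing in the labels says how the pools were made, so the spread between libraries may be biological or technical.

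All 10 genes reached 1 CPM in all 3 libraries, where 67.0% of the 18377 genes with a count did so. Which cells these messages came from was not tested. Each of the 10 genes also had 10 or more counts in every library, and none dropped out of the filter on low counts. Their median level was 20.6 CPM or 15.5 TPM, beside 16.2 CPM and 19.7 TPM over the 14774 genes tested. The genes were thus measured at depths from 50 counts, for Lhx5 in replicate 2, to 1732 counts, for Ebf3 in replicate 1. In RNA from a pool of tissue, fewer cells of a type and less RNA per cell cannot be told apart.

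**Figure D1:**
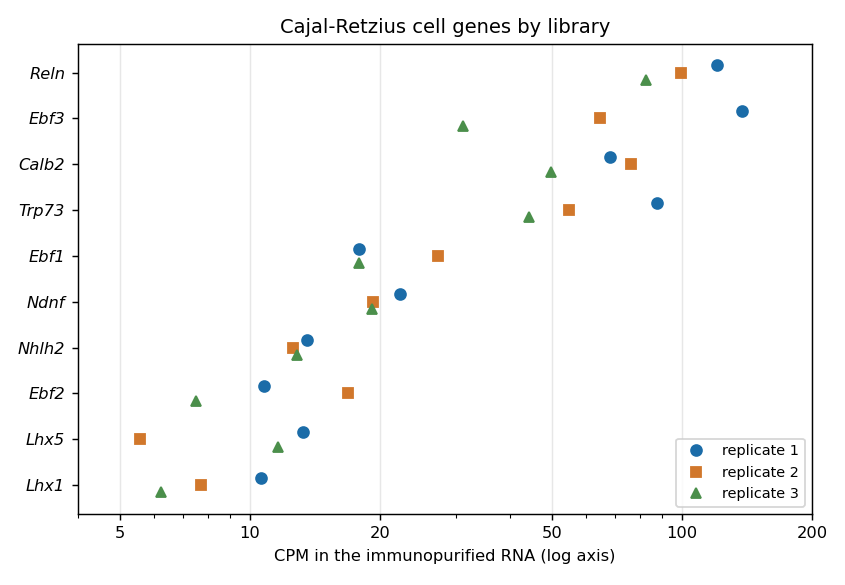
CPM of each gene (log axis) in the 3 libraries, 1 symbol per library, ordered by mean. Ebf3 is spread from 31.2 to 138 CPM, whereas the symbols of Nhlh2 and Ndnf nearly coincide.

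Among the transcription factors, Trp73 encodes p73, a relative of p53 that Cajal-Retzius neurons need for their survival (ENSMUSG00000029026.16, mm10 chromosome 4, 154056253 to 154140208, minus strand). Trp73 had 87.8, 54.8 and 44.2 CPM in replicates 1, 2 and 3. Replicate 1 was the highest, 1.60 times the next library and 1.99 times replicate 3, and the lower pair differed 1.24-fold. The gene has an upstream and an internal promoter, which give a full-length and a shorter p73 protein, and counts per gene do not tell them apart. Of its exonic bases, 5.06% are shared with the annotated gene Trp73os, and whether counting used strand is not given in the sources used here. Per length Trp73 stood at 56.3 ± 20.4 TPM, equal to 9.99%, 7.39% and 4.72% of the Slc17a6 TPM in replicates 1, 2 and 3.

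Ebf3 encodes a helix-loop-helix zinc finger factor of the EBF family and showed the widest spread of the 10 genes (ENSMUSG00000010476.14, chromosome 7, 137193673 to 137314445, minus strand). It had 138, 64.7 and 31.2 CPM in replicates 1, 2 and 3. No library resembled another, since replicate 1 was 2.13 times replicate 2, which was 2.07 times replicate 3, a span of 4.40-fold. On the log2(CPM + 0.5) scale the range was 2.12, and without replicate 1 it was 1.04. In TPM it was 42.2 ± 29.3, with 9.39%, 5.23% and 2.0% of the Slc17a6 TPM in the 3 libraries.

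The other EBF genes were lower and had another order of libraries. Ebf1, which striatal neurons and mural cells also use, had 17.9, 27.2 and 17.9 CPM in replicates 1, 2 and 3 (chromosome 11, 44617317 to 45008091, plus strand). Ebf2 had 10.8, 16.8 and 7.51 CPM (chromosome 14, 67233292 to 67430918, plus strand). Both were highest in replicate 2, by 1.52-fold and 1.56-fold over the next library, while Ebf3 was highest in replicate 1. Ebf1 spanned 1.52-fold with replicate 2 and 1.0-fold without it, and Ebf2 2.24-fold and 1.44-fold. Ebf4, the remaining gene of the family and not among the 10, was also highest in replicate 2, with 3.34, 6.36 and 2.13 CPM.

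Within the EBF family Ebf3 therefore held 77.1% of the summed TPM in replicate 1, 49.4% in replicate 2 and 48.6% in replicate 3. Ebf3 exceeded Ebf1 by 8.10-fold, 2.51-fold and 1.85-fold in TPM, and Ebf2 by 9.56-fold, 2.88-fold and 3.12-fold. It was the higher gene in 3 of 3 libraries in both pairs, with mean differences of 1.70 ± 1.11 and 2.07 ± 0.96 on the log2(TPM + 0.5) scale. Reads that match more than one paralog were not counted, and 6.12% of the exonic bases of Ebf2 and 3.85% of those of Ebf3 are shared with other annotated genes.

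Lhx1 and Lhx5 encode a pair of closely related LIM homeodomain factors that act in early forebrain neurons. Lhx1 had 10.6, 7.70 and 6.25 CPM in replicates 1, 2 and 3 (chromosome 11, 84518284 to 84525535, minus strand). Lhx5 had 13.3, 5.58 and 11.6 CPM (chromosome 5, 120431699 to 120441223, plus strand). Lhx5 was the gene with a low replicate 2, at 50 counts against 167 and 147, whereas Lhx1 was lowest in replicate 3. The span of Lhx5 was 2.38-fold, and 1.14-fold without replicate 2. Lhx5 exceeded Lhx1 in TPM in 3 of 3 libraries, by 1.89-fold, 1.10-fold and 2.82-fold, and made up 63.8% ± 10.8 of their sum. Nhlh2, which encodes a basic helix-loop-helix factor of developing and hypothalamic neurons, differed least, with 13.6, 12.6 and 12.9 CPM (chromosome 3, 102010076 to 102015492, plus strand). Its highest and lowest libraries were only 1.08-fold apart.

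Of the secreted products, reelin is the one for which the cells are known. Reln had 121, 99.6 and 82.6 CPM in replicates 1, 2 and 3 (ENSMUSG00000042453.14, chromosome 5, 21884454 to 22344702, minus strand). Replicate 1 was again the highest and replicate 3 the lowest, 1.46-fold apart, a narrower span than that of Trp73 or Ebf3. Reln had the highest mean of the 10 genes in CPM, at 101 ± 19.2, but it is also the longest, and per length it stood below Calb2, Trp73 and Ebf3 at 21.3 ± 3.99 TPM. Ndnf encodes a secreted neurotrophic factor that layer 1 interneurons also make (chromosome 6, 65671590 to 65712326, plus strand). It had 22.2, 19.3 and 19.2 CPM, so its libraries lay within 1.16-fold. Reln exceeded Ndnf in TPM in 3 of 3 libraries, by 2.32-fold, 2.20-fold and 1.83-fold.

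Calb2 encodes calretinin, a calcium-buffering protein found in Cajal-Retzius cells and in several other neuron types (chromosome 8, 110137502 to 110168210, minus strand). It had 68.1, 76.2 and 49.7 CPM in replicates 1, 2 and 3, highest in replicate 2 and lowest in replicate 3. As the gene with the shortest exons it was the highest of the 10 per length, at 186 ± 39.0 TPM, or 24.6%, 32.6% and 16.9% of the Slc17a6 TPM. The related buffer genes Calb1 and Pvalb stood at 47.7 ± 6.34 and 50.9 ± 13.1 TPM, and Calb2 exceeded Calb1 in 3 of 3 libraries.

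Ordered by mean TPM, the genes ran Calb2, Trp73, Ebf3, Reln, Lhx5, Nhlh2, Ebf1, Lhx1, Ndnf and Ebf2, from 186 down to 8.47 TPM. Of the 9 neighbouring pairs in this order, 1 was separated beyond the spread. Calb2 exceeded Trp73 by 1.75 ± 0.42 on the log2(TPM + 0.5) scale, in 3 of 3 libraries and without overlap. Trp73 exceeded Ebf3 in 3 of 3 libraries by 0.60 ± 0.57, but their library values overlapped. In the other 7 pairs the higher gene by mean led in at most 2 of 3 libraries. With the length of the longest transcript in place of merged exons, Ebf3 stood above Trp73, at 58.7 ± 40.8 against 46.6 ± 16.8 TPM, and Reln stood at 32.6 ± 6.07 TPM. Such a comparison has a smallest exact sign-flip p of 0.25 with 3 libraries, so none was tested.

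**Figure D2:**
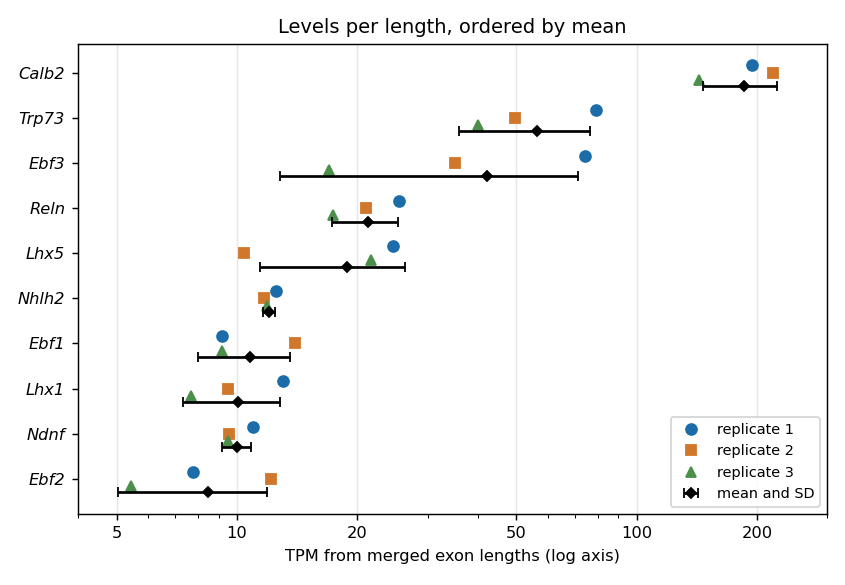
TPM of each gene (log axis) in the 3 libraries, with the mean and SD in black, ordered by mean. Calb2 at 186 TPM is clear of the rest, and each neighbouring pair below it overlaps.

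The promoters of Ebf3 and Reln are shown because these genes prompted the choice of the set and because EBF factors are among its members. RefSeq promoter windows on GRCm38.p6 were matched by symbol for 6 of the 10 genes, and the 250 bases before the annotated start were searched. Both are printed 5′ to 3′ on the gene's own strand, with matches to the EBF core motif CCCNNGGG in capitals.
Ebf3, chr7:137314446-137314695, minus strand: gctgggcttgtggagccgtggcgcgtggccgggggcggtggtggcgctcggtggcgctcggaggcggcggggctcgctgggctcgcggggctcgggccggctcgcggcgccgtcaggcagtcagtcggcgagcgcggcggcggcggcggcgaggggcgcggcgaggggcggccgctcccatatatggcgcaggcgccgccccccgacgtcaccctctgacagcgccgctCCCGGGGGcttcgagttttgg
Reln, chr5:22344706-22344955, minus strand: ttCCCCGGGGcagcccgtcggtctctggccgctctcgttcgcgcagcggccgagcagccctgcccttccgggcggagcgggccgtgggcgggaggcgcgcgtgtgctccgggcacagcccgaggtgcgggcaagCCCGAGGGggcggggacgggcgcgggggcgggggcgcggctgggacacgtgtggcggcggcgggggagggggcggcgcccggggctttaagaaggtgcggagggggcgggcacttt
The Ebf3 window held 1 match and the Reln window 2, where 11.8% of 32851 promoter windows of this length held at least 1. The windows of Ebf1, Lhx1, Nhlh2 and Trp73 held 0 matches. Of these windows, only 1 of Ebf1 was free of annotated exon bases, and both of Trp73 were exon throughout. The motif reads the same on both strands, so each match counts once. Both windows were 80.0% G and C, and a motif of C and G is met more often in such sequence. Neither window held the homeodomain core TAATTA, the E-box CAGCTG or, on either strand, TATAAA, which 4.84%, 13.0% and 12.4% of windows held. A match describes these letters and is not a shown binding site.

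Across libraries, 7 of the 10 genes were highest in replicate 1, where 34.1% of genes tested were, and 3 were highest in replicate 2, where 32.8% were. None was highest in replicate 3, where 33.1% of genes tested were. Trp73 and Ebf3 exceeded the next library by more than 1.5 times in replicate 1, as did 6.97% of all genes tested and 2.22% of genes of at least 5 CPM. Summed CPM of the 10 genes were 503, 385 and 283 in replicates 1, 2 and 3, and without Ebf3 they were 365, 320 and 252. The median range over libraries was 0.67 log2 units, against 0.51 over all genes tested. Since Ebf3 and Reln were chosen partly for such differences, this contrast supports nothing.

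Variation between libraries was modelled for all genes in edgeR, as the misfit of a negative binomial model that gives each gene 1 common level. Of the 10 genes, 1 was called at an adjusted p of 0.05, which was Ebf3, where 0.244% of the 14774 genes were called. At an unadjusted p of 0.05 there were 2 of 10, Ebf3 and Trp73, against 7.22% of all genes. Differences between libraries were among the reasons for choosing these genes, so nothing is read from these counts. Without replicate 1, 0 of the 10 genes were called.

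**Figure D3:**
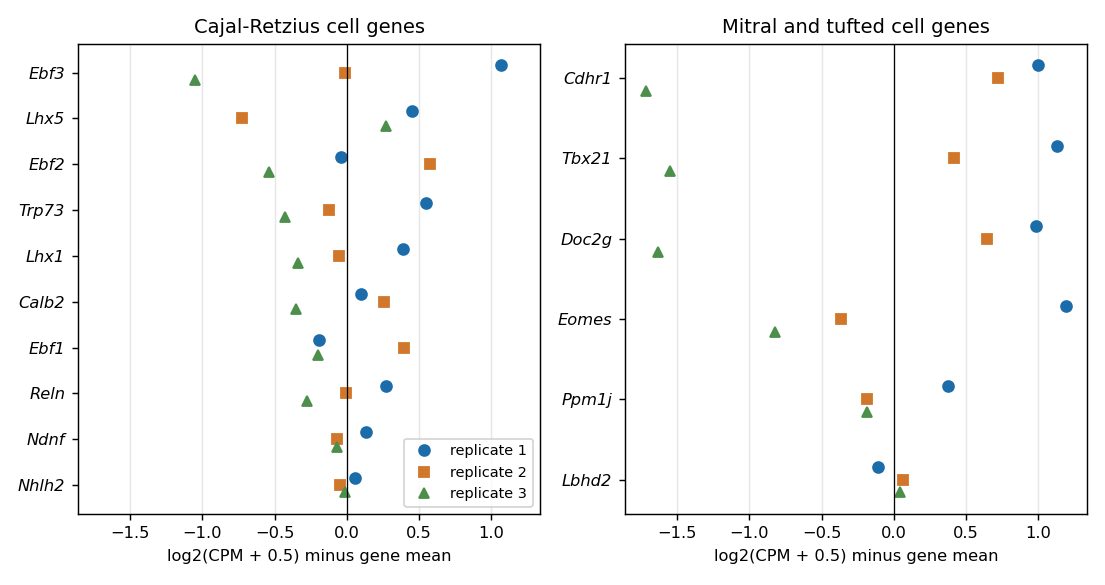
Log2(CPM + 0.5) of each gene minus its mean over the 3 libraries, for the 10 genes (left) and for 6 genes of mitral and tufted cells (right), ordered by range. Ebf3 is highest in replicate 1 and lowest in replicate 3, Lhx5 is low in replicate 2, and Cdhr1, Tbx21, Doc2g and Eomes are lowest in replicate 3.

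Markers of other cells that use the same genes were set beside these values. The 6 genes of mitral and tufted cells summed to 157, 117 and 26.6 CPM in replicates 1, 2 and 3, highest and lowest in the same libraries as Ebf3 and Trp73. Of these genes 5 were highest in replicate 1, and 4 of 6 reached 1 CPM in every library. Lbhd2 was highest in replicate 2 and lowest in replicate 1, at 2.22, 2.57 and 2.53 CPM in replicates 1, 2 and 3. The cadherin-related gene Cdhr1, the highest of the list, held most of each sum. Cdhr1 had 116, 95.9 and 17.3 CPM, and it was called in edgeR (adjusted p = 2.28e-15). It was the only gene called of the 5 tested, and without replicate 3 its adjusted p in edgeR was 1.0. Eomes, a T-box factor of these cells, had 22.1, 7.14 and 5.06 CPM (adjusted p = 0.107 in edgeR). Tbx21, the T-box factor that defines them, had 34, 13 and 0 counts, and the lowest gene, Ppm1j, had 3, 0 and 0 counts. Cdhr1, Eomes, Tbx21 and Doc2g were each lowest in replicate 3. The sum of the olfactory bulb interneuron list below was lowest in replicate 1, but its genes were mixed. Of them Trh and, by little, Tshz1 were lowest in replicate 1. Th, Scgn and Meis2 were lowest in replicate 3, and Sp8 in replicate 2. The part of mitral and tufted cells in the values of Ebf3, Trp73, Reln and Lhx1 was not tested.

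Layer 1 and neurogliaform GABAergic markers, which share Reln and Ndnf, were closer between libraries as a sum. The 10 markers summed to 1036, 970 and 963 CPM, all 10 reached 1 CPM in every library, and 5 were highest in replicate 1. Gad2, a GABA-synthesizing enzyme, held most of each sum at 626 ± 45.2 CPM, and the chemokine gene Cxcl14 was lowest at 6.88 ± 0.62 CPM. The median range of the list was 0.41 log2 units, against 0.67 for the Cajal-Retzius cell genes. The latter were chosen partly for differences between libraries, so the contrast supports nothing. Single markers ranged from 0.08 log2 units for Sv2c to 1.34 for Nos1, which had 17.5, 45.1 and 19.4 CPM. The 6 Sst interneuron markers summed to 456, 529 and 576 CPM, lowest in replicate 1, and 4 of them were highest in replicate 3. Satb1, a chromatin organizer, was their highest at 199 ± 16.8 CPM, and Chodl their lowest at 2.04 ± 0.52 CPM. Vip and Cck interneuron markers, whose bipolar cells share Calb2, summed to 384, 485 and 464 CPM. The peptide gene Cck held most of that sum at 428 ± 53.4 CPM, and Htr3a was lowest at 1.36 ± 0.89 CPM. Vip itself had 2.94, 6.14 and 1.19 CPM (37, 55 and 15 counts), highest in replicate 2 and lowest in replicate 3, as was Calb2. The rest of the list was mixed. Cck was highest in replicate 2 but lowest in replicate 1, Htr3a and Sncg were highest in replicate 1, and Crh in replicate 3. The part of these cells in the Calb2 values was not tested.

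Striatal projection neuron markers, which share Ebf1, summed to 447, 600 and 687 CPM in replicates 1, 2 and 3. Of the 10 genes 8 were highest in replicate 3, among them the peptide gene Penk, the highest at 201 ± 51.7 CPM, with the adenosine receptor gene Adora2a lowest at 6.65 ± 4.99 CPM. Mural cell markers summed to 32.5, 38.2 and 26.9 CPM, led by Rgs5 at 17.3 ± 2.58 CPM with Kcnj8 lowest at 2, 0 and 3 counts. The part of striatal neurons and of mural cells in the Ebf1 values was not tested. Thalamic markers, whose cells can share Calb2, summed to 306, 287 and 268 CPM. Rora, the highest of them at 158 ± 17.9 CPM, and Ntng1, at 99.4 ± 11.1 CPM, held most of each sum. Both fell from replicate 1 to replicate 3, whereas Tcf7l2, Prkcd and Lef1 were higher in replicate 3 than in replicate 1. Gbx2 had 0 counts. Tcf7l2, a Wnt pathway factor, had 7.86, 32.4 and 20.6 CPM and was called in edgeR (adjusted p = 0.0429). It was not called by limma (adjusted p = 0.251) or with DESeq2 dispersions (adjusted p = 0.162), and in edgeR its adjusted p was 0.941 without replicate 1 and 0.478 without replicate 2.

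Ependymal and choroid plexus markers, relevant to Trp73, were low. The 7 genes summed to 4.21, 9.71 and 9.49 CPM in replicates 1, 2 and 3. This list was chosen after values were seen, and the part of such cells in the Trp73 values was not tested. Foxj1, the regulator of motile cilia, led at 6.11 ± 2.84 CPM, while Tmem212, Folr1 and Kcne2 had 0 counts. Meningeal fibroblast markers, from the tissue above layer 1, summed to 3.26, 2.01 and 6.01 CPM, led by Dcn at 2.46 ± 2.73 CPM with 0 counts of Slc47a1. Endothelial markers summed to 3.02, 4.13 and 3.95 CPM, with Flt1 highest at 2.40 ± 0.29 CPM and Cldn5 lowest at 2, 0 and 0 counts. Olfactory bulb interneuron markers summed to 183, 206 and 194 CPM, with Meis2 at 124 ± 7.46 CPM and Sp8 at 9, 0 and 1 counts.

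**Figure D4:**
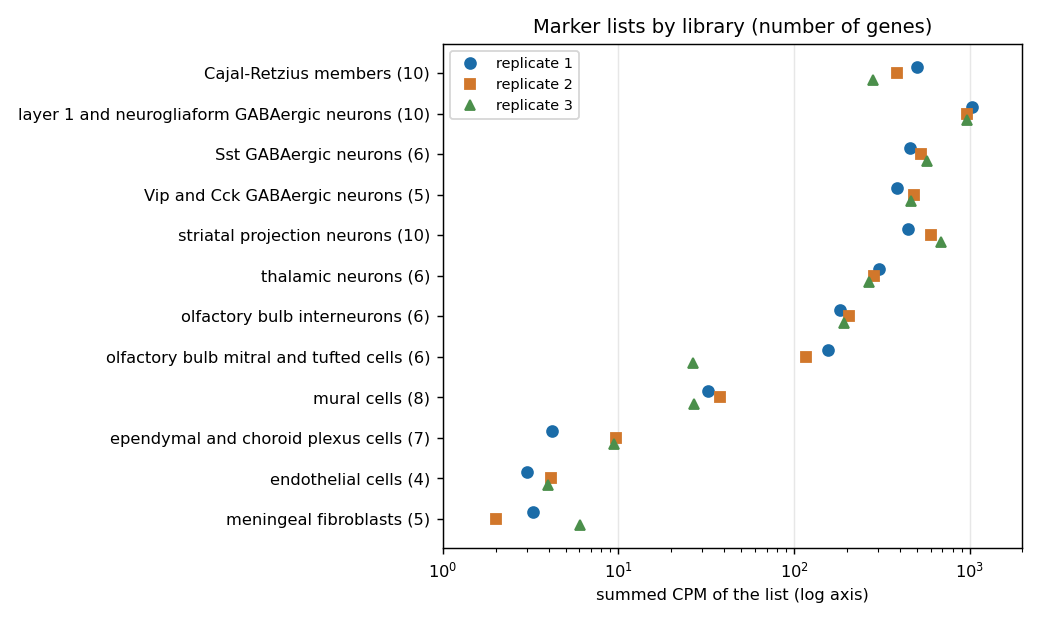
Summed CPM (log axis) of each marker list in the 3 libraries, with the number of genes in the list. The mitral and tufted cell list is at 26.6 CPM in replicate 3, while the layer 1 GABAergic list lies between 963 and 1036 CPM.

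Of a further 12 genes reported in Cajal-Retzius cells or in the cortical hem and septum that give rise to them, 9 reached 1 CPM in every library. They summed to 758, 755 and 783 CPM in replicates 1, 2 and 3, and 6 of the 12 were highest in replicate 1. Their median log2 difference of replicate 1 minus replicate 3 was 0.10, against 0.47 for the 10 genes and 0.01 over all genes tested. Such differences of Ebf3 and Reln were part of the reason for choosing the 10 genes, so nothing is read from this contrast. Car10, a carbonic anhydrase-related gene that held the largest part of the sum, had 243, 253 and 285 CPM, and the calcium channel subunit gene Cacna2d2 stood at 114, 140 and 120 CPM. Tbr1 and many others of the list are also used by other cortical neurons. The chemokine receptor gene Cxcr4, through which Cajal-Retzius cells are positioned under the meninges, had 16, 8 and 11 counts, and the hem gene Lmx1a had 0. Of the 10 genes tested, 0 were called in edgeR at an adjusted p of 0.05, 0 had an unadjusted p under 0.05, and 0 were called by limma or with DESeq2 dispersions.

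Reelin acts on other neurons through the lipoprotein receptors VLDLR and ApoER2 and the adaptor DAB1, and genes of this pathway were looked up as well. All 17 pathway genes reached 1 CPM in every library, as did 67.0% of genes with a count. The cells that these messages came from were not tested. Of the receptor genes, Vldlr had 35.7, 35.3 and 34.0 CPM in replicates 1, 2 and 3, and Lrp8, which encodes ApoER2, had 81.1, 64.0 and 48.9 CPM. Vldlr thus hardly differed, and Lrp8 differed more (adjusted p = 0.736 in edgeR). Both had the same order of libraries as Reln, as did Fyn, Crk, Rapgef1 and Rap1a, and the rest of the 17 did not. Per length Lrp8 stood at 30.8 ± 7.57 TPM and Vldlr at 17.4 ± 0.40 TPM. Dab1 was at 144, 126 and 143 CPM, and the kinase genes that phosphorylate it, Fyn and Src, averaged 91.3 ± 15.1 and 22.8 ± 4.41 CPM. Pafah1b1, which encodes the dynein regulator LIS1, was highest at 449 ± 11.9 CPM. The reelin-cleaving protease genes were low, with Adamts3 at 9.30 ± 2.30 CPM and Adamts4 lowest at 2.54 ± 1.23 CPM. Of the 17 genes, 0 were called in edgeR, 0 had an unadjusted p under 0.05, and 0 were called by limma or with DESeq2 dispersions.

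**Figure D5:**
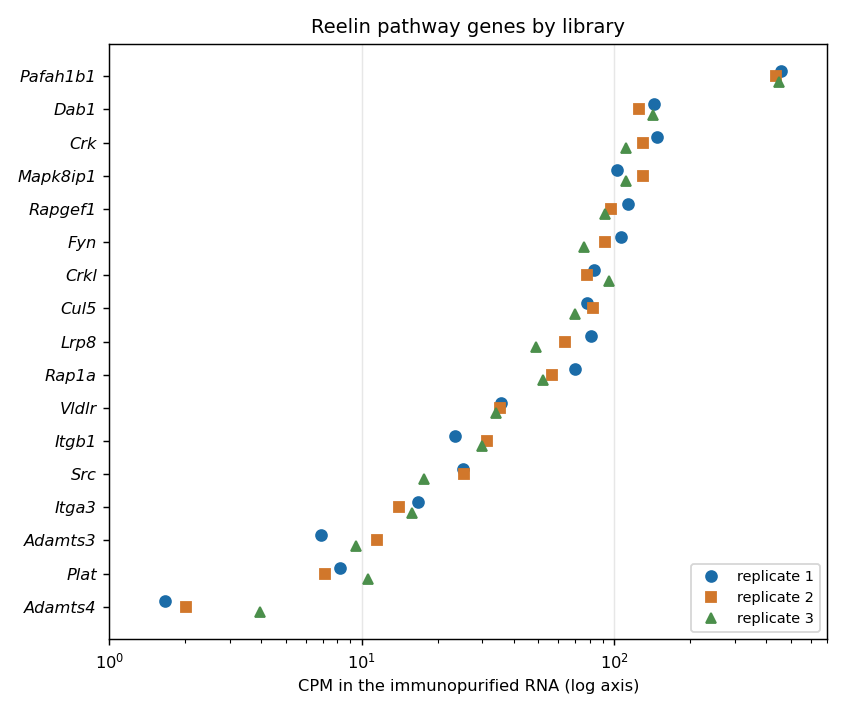
CPM (log axis) of the 17 reelin pathway genes in the 3 libraries, ordered by mean. Vldlr lies between 34.0 and 35.7 CPM, Lrp8 spans 48.9 to 81.1 CPM and Adamts4 1.67 to 3.95 CPM.

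Relatives and partners of the transcription factors were compared in the same way. Of the EBF partners, Zfp423 had 60.4, 61.8 and 81.8 CPM and Zfp521 had 29.3, 34.4 and 25.3 CPM, so neither shared the order of Ebf3. In the p53 family, Trp53 had 34.2, 26.2 and 49.3 CPM, highest in replicate 3, where Trp73 was lowest, and Trp63 had 5, 0 and 5 counts. Trp73 held 65.1%, 60.4% and 39.5% of the family's summed TPM in replicates 1, 2 and 3, and exceeded Trp53 in 2 of 3 libraries. Nhlh1, the close relative of Nhlh2, had 14, 3 and 14 counts. Of 16 other LIM homeodomain and cofactor genes, 11 reached 1 CPM in every library. The LIM cofactor regulator gene Rlim was highest at 196 ± 14.5 CPM, and Lhx4, Lmx1a and Lmx1b had 0 counts. In edgeR 0 of the 12 tested were called, with 1 at an unadjusted p under 0.05, and limma and DESeq2 dispersions called 0. Of the 3 EBF relatives and partners, of Trp53 and of Nhlh1, 0 were called in edgeR, by limma or with DESeq2 dispersions, and only Trp53 had an unadjusted p under 0.05 (adjusted p = 0.662 in edgeR).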

How the data were processed

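Each library has 1 table of whole-number counts by gene symbol, as the authors deposited it. The submitters' processing notes name STAR 2.0.0e, HTSeq and mm10; the sources used here do not give settings, annotation or use of strand. Rows without a gene, 27.8% ± 0.56 of counts (SD, n = 3), were left out. CPM used totals of named genes, and log2 values a pseudocount of 0.5 CPM. TPM used merged exons of GENCODE M21 (mm10), matched by symbol for 87.1% of genes with a count; 1 list gene was matched through an older symbol. The genes and lists were chosen with earlier results of these data known, and the ependymal list after values were seen. Named are all 10 genes, the highest, lowest and called genes of each list, and profile neighbours; other genes were chosen after their values were seen. Variation was tested with edgeR 4.0.16 (TMM, trended dispersion, deviance against chi-square with 2 degrees of freedom, Benjamini-Hochberg adjustment, at least 10 counts in any library). Alternatives used limma 3.58.1, DESeq2 1.42.0, R 4.3.3 and Python 3.11.15. Intervals were not computed; 3 pools limit the precision.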

Additional observations from a re-analysis of the deposited data

How the results depend on the processing

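The 10 genes stayed at 10 of 10 at thresholds of 0.5 and 5 CPM, at 1 TPM, under both other scalings and without any 1 replicate. The count of varying genes was 36; it was 1097 with a common dispersion (26 shared), 12 with limma (11 shared), 17 with 10 counts in every library, 18 at an adjusted p of 0.01, and 16 to 21 without 1 replicate. Ebf3 was the 1 gene called of the 10 in all of these except without replicate 1, so the count of called genes was 0 to 1. Of the 10 places in the order by TPM, 3 were kept with the longest transcript length, 0 in CPM, and 5 to 10 without 1 replicate. Mean levels moved by less than 1 SD in 29 of 30 values under other scalings (Nhlh2 was 14.0 CPM with totals without Rn45s). Without 1 replicate they did so in 30 of 30, but this was fixed in advance. With 3 libraries, leaving out 1 cannot move a mean by the SD of all 3. The Ebf3 mean still went from 77.8 to 48.0 CPM without replicate 1. Ranges moved by less than 1 SD in 50 of 50 values under other scalings and pseudocounts. The TPM range was chosen after seeing the data. Leaving out a replicate moved 10 of 30 ranges, 6 of them without replicate 1. The count of 10 was also fixed in advance, since with 3 values exactly 1 omission per gene moves the range by over 1 SD. It therefore says nothing about stability. No paired analysis was possible because there is 1 group. Depth limits Lhx5 and Lhx1, at 50 and 69 counts in replicate 2: a range of 1.18 log2 units for Lhx5 was not called.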

Other observations

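Profiles over the 3 libraries were compared among the 10526 other genes of at least 5 CPM, as the Euclidean distance between centred log2(CPM + 0.5) values. With 3 libraries, close profiles arise between unrelated genes, and no test was made. Ebf3 and Reln were also chosen partly because they differ between libraries, so no cell type is read from their neighbours. Closest to Ebf3 were Shisa3 (10.2, 5.13 and 2.21 CPM, distance 0.12), Mtfr1 (10.2, 4.35 and 2.53 CPM), Odf2l, Rell1 and Perp (15.0, 6.92 and 4.66 CPM, distance 0.43). Eomes, a T-box factor of mitral and tufted cells looked up beyond the 5 nearest, was sixth at a distance of 0.44. Trp73 was 108th at 0.82, Lhx1 295th at 0.99, Cdhr1 299th at 0.99 and Reln 637th at 1.11, while Ebf1 and Lhx5 lay at ranks 6447 and 7170. Closest to Reln were BC029214, Atg7, Scnm1, 2610008E11Rik and Foxk1, all within 0.02 log2 units, which shows how common its mild slope is. Mitral and tufted cell genes were among the farthest from Reln, with Eomes at rank 10195, Doc2g at 10485 and Cdhr1 at 10499. Ebf3 was also far, at rank 10164. The distance grows with the size of a range, so it does not show another order of libraries. Eomes, Doc2g, Cdhr1 and Ebf3 fell from replicate 1 to replicate 3, as Reln did. Their ranges were 2.02, 2.62, 2.71 and 2.12 log2 units, against 0.55 for Reln. Among the 10 genes, Lhx1 was nearest to Reln, at rank 409 and a distance of 0.14.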
